A study of Danio rerio with 6 samples.

Results

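The array used for these brains carries some targets in both directions, and 1380 of its 38489 targets bear a mark at the end of their names that is read here as that of a reverse-strand copy. The files do not define the mark, and every value given for a reverse-strand target rests on this reading. The targets were chosen by the mark, with no measured value in the choice, and 1332 of them were paired with the target of the same name without the mark, here called the forward partner. The other 48 reverse-strand targets had no partner. A target is a transcript sequence that a few oligonucleotide probes represent. Each of the 1380 reverse-strand targets had 2 probes, while 1323 forward partners had 3 probes and 9 had 2.

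The brains came from 6 male AB zebrafish aged 12 months, with 1 fish per sample and 1 array per sample. In the control group of 3 the embryos were kept at 0 ppb, and in the lead group of 3 they were kept in 100 ppb lead acetate, from before 2 hours until 72 hours after fertilization. Fish of both groups then grew up in water without added lead at 28 °C. NimbleGen oligonucleotide arrays of 1 colour (Cy3) measured cDNA made from the total RNA of each brain. The comparison by exposure asks what differs in the aged brain long after an embryonic exposure.

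Most genes are read from 1 strand of DNA, and the RNA copied from the opposite strand of the same place is called antisense. Antisense RNAs can change the transcription, splicing, stability or translation of their sense partners, and the brain is among the tissues in which many are known. Expressed sequence tags (ESTs) are single reads of cDNA clones whose orientation can be wrong or unknown, so a design may place both directions of an EST on an array. The labels name a kit that labels DNA and do not say whether the cDNA was single or double stranded. A double-stranded cDNA carries both directions of every transcript, so signal on a reverse-strand target from antisense RNA and signal from the copied sense strand cannot be told apart here. The same holds for an EST filed in the wrong direction.

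The reverse-strand targets were nearly all ESTs. Single ESTs made up 1012 of them, against 1014 single ESTs among all other targets, so nearly every EST on the array was present in both directions. Contigs assembled from ESTs made up 310, against 3763 among the other targets, and mRNA records made up 56, against 1081. None of the 31249 targets built from gene models had a reverse-strand copy. A gene name could be given to 368 pairs with 357 different names, of which 300 were names of a homologue in another species, written here as the annotation gives them, and 68 were zebrafish symbols. The annotation placed 212 pairs on the Zv7 assembly.

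The 6 arrays had median log2 intensities of 10.96 to 11.02 over all targets. The 27114 probes with random sequences, which target no gene and measure background, had medians of 7.97 to 8.12. Their 95th percentile, 10.41 to 10.91, served as the limit above which a target counted as detected. Of the marker genes looked up, all 3 neuronal markers measured (snap25a, snap25b and vamp2) and all 4 glial markers (gfap, glula, s100b and cx43) were above the limit on all 6 arrays, as were 2 of 3 myelin markers. The 3 pituitary markers and the muscle marker were not. The blood marker hbaa1 was above it. The groups lay at different positions of the scan, which cannot be told apart from exposure, and replicate 1 of each group lacked an image name prefix that the other 4 arrays had.

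Reverse-strand targets were detected about as often as their forward partners and less often than the array's targets as a whole. On single arrays 40.2% to 49.4% of the reverse-strand targets were above the limit, against 39.3% to 48.9% of the forward partners and 50.6% to 58.3% of all targets. On all 6 arrays 496 reverse-strand targets (35.9%) and 481 forward partners (36.1%) were above it, where 47.5% of all targets were. On each array the share of reverse-strand targets was below that of all targets, by more than its distance from the share of forward partners. Mean log2 levels of reverse-strand targets ranged from 6.71 to 15.18, with a median of 10.31 and quartiles of 8.82 and 11.88. Forward partners ranged from 6.66 to 15.34, with a median of 10.24. Between any 2 of the arrays, levels correlated at 0.964 to 0.985 over the reverse-strand targets and at 0.974 to 0.989 over the forward partners, which are descriptions across targets.

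The level of a reverse-strand target followed that of its forward partner. Across the 1332 pairs the mean levels correlated at 0.880, and at 0.870 to 0.885 on single arrays. The median difference, reverse minus forward, was 0.064 on the log2 scale with quartiles of −0.44 and 0.67. The reverse-strand target had the higher mean in 715 pairs (53.7%), and in 958 pairs (71.9%) the 2 directions lay within 2-fold. Both members were above the limit on all 6 arrays in 388 pairs, and neither was above it on any array in 523. Only 27 pairs had the reverse-strand target above the limit on all 6 arrays and the forward partner on none. In 20 pairs it was the other way round, and the remaining 374 pairs fell in between.

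**Figure D1:**
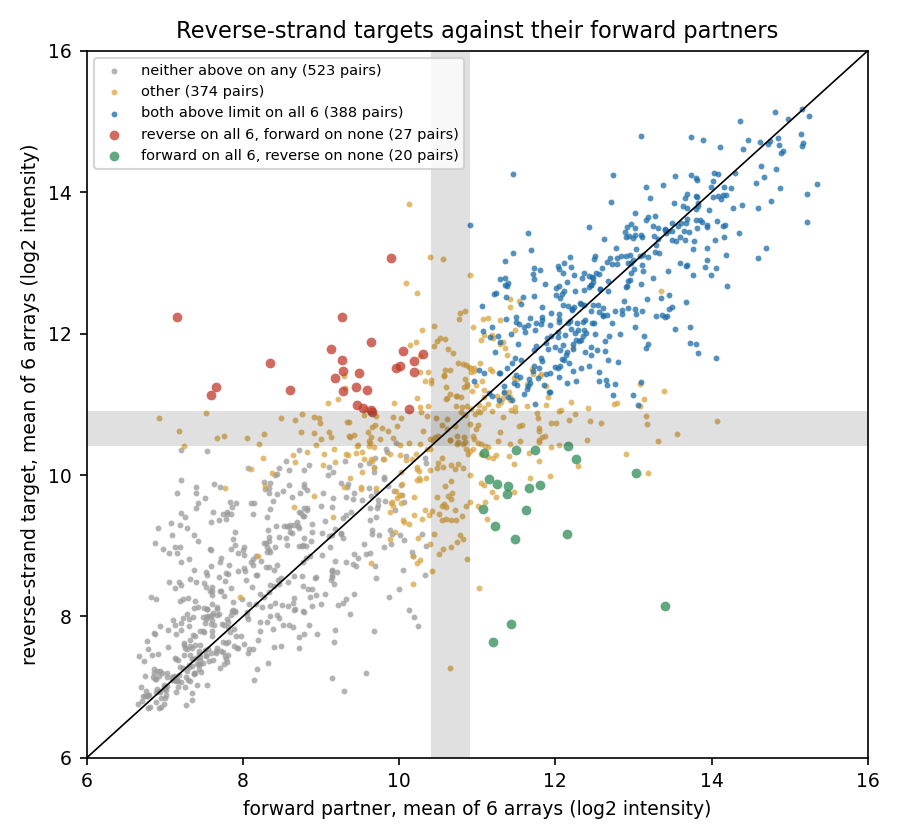
Each point is 1 of the 1332 pairs, with the mean log2 intensity of the forward partner over 6 arrays on the x axis and that of the reverse-strand target on the y axis; the black line marks equal levels and the grey bands the range of the random-sequence limit over the arrays, 10.41 to 10.91. The 388 pairs detected in both directions follow the line up to the brightest targets, and the 27 reverse-only and 20 forward-only pairs stand off it.

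Which direction was brighter moved with the class of detection, and the classes were cut from the same values. Choosing the 481 pairs by the forward target alone, detected on all 6 arrays, gave a median of −0.22 with 36.6% higher in reverse. The shifts between classes are thus not read as a trait of the directions. Among the 388 pairs detected in both directions the median difference was −0.078, the reverse-strand target was higher in 175 (45.1%), and 328 (84.5%) lay within 2-fold. Among the 523 pairs detected in neither direction the median was 0.20 and the reverse-strand target was higher in 327 (62.5%). The limit itself was set over single random-sequence probes, while targets with 2 and 3 probes were summarised. By kind of sequence the median difference was 0.072 for 981 pairs of single ESTs, −0.009 for 294 pairs of contigs and 0.13 for 55 pairs of mRNA records. In 34 of those 55 mRNA pairs the reverse-strand target was the higher, and 24 of them were detected in both directions.

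In most pairs the difference kept its sign over the brains. In 528 pairs the reverse-strand target was the higher on all 6 arrays and in 433 the forward partner was, and the sign varied in 371. The median SD over the 6 arrays was 0.22 for the difference, 0.26 for the reverse-strand level and 0.23 for the forward level. The median difference of an array was 0.080 ± 0.015 in controls and 0.063 ± 0.008 in lead-exposed brains (SD, n = 3). That gap of −0.017 was not beyond the spread between arrays in an exact permutation test, 2-sided, with p = 0.2, where the smallest p that 3 against 3 arrays allow is 0.1.

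Large differences were few. The reverse-strand target was over 4-fold the brighter in 52 pairs and the forward partner in 31, with targets below the limit included. Since the directions have probes of their own, a difference is also one between probes. Named pairs are given by fixed rules, here the 8 with the highest difference among reverse-strand targets detected on all 6 arrays. The first of them was CYB5, cytochrome b5, an electron carrier of the endoplasmic reticulum, an mRNA record placed on chromosome 7 at 66533050 to 66550333. Its reverse-strand levels were 11.14, 11.25 and 12.43 in the controls and 12.10, 11.37 and 12.43 in the lead-exposed brains. Its forward levels were 8.74, 8.96 and 9.76 in controls and 9.16, 8.55 and 9.61 in exposed brains. The forward partner was below the limit on all 6 arrays, and the measured difference of 2.66 ± 0.26 (SD, n = 6) is taken against a level not above background.

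The second was NDUFS7, a subunit of respiratory complex I. The reverse-strand target read 13.60, 13.75 and 13.34 in controls and 13.80, 13.46 and 13.28 in exposed brains, and the forward partner 11.02, 11.09 and 10.78, then 11.16, 10.80 and 10.57. Every array thus showed nearly the same gap, 2.63 ± 0.05 (SD, n = 6), between the summaries. Among single probes, 1 forward probe averaged 14.58, above both reverse probes at 14.52 and 12.55. The other forward probes averaged 10.87 and 10.77. UQCRC1, a core subunit of complex III, differed by 1.67 ± 0.55, with the smallest gap on control array 3. For TRIM16, a tripartite-motif protein, the difference was 2.34 ± 0.54, and its forward partner was above the limit on 1 array of 6. DYRK2, a protein kinase placed on chromosome 11 at 20785511 to 20789470, differed by 1.92 ± 0.15. DDX26 differed by 1.91 ± 0.20, and its forward partner was below the limit on all 6 arrays. Differences were 1.71 ± 0.15 for the ribosomal protein gene rpl30 and 1.67 ± 0.34 for IL10RB, a cytokine receptor chain. The forward partner of IL10RB was above the limit on 1 array of 6, and that of DYRK2 on 5. All 8 had the reverse-strand target higher on all 6 arrays. With the plain mean of a target's probes in place of the summary, 4 of these differences moved by more than their SD, to 2.19 for CYB5, 1.46 for NDUFS7, 1.94 for rpl30 and 2.60 for IL10RB.

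In the opposite direction the lowest difference among the named pairs was that of HNRPA0, an RNA-binding protein of the hnRNP family. The forward target of this EST read 13.48, 13.55 and 12.95 in controls and 13.61, 13.39 and 13.43 in exposed brains. The reverse-strand target read 7.99, 7.96 and 8.22, then 8.31, 8.08 and 8.30. The reverse-strand levels thus lay near the median of the random-sequence probes on every array, and the measured difference of −5.26 ± 0.31 (SD, n = 6) is taken against that background. In this pair a bright forward target had a reverse-strand copy that was not detected above background. GFR differed by −3.56 ± 0.28 and rpl9, a ribosomal protein gene, by −3.55 ± 0.50, and both reverse-strand targets were at background, with means of 7.63 and 7.89. MYO10, the myosin of filopodia, differed by −3.15 ± 0.29, with reverse probes averaging 13.11 and 6.96 and forward probes 13.60, 12.27 and 13.16. SLC25A37, the iron importer mitoferrin of mitochondria, differed by −3.00 ± 0.17, and HERC3, a ubiquitin ligase, by −2.83 ± 0.19. The reverse probes of HERC3 averaged 13.67 and 7.29 and its forward probes 7.56, 13.46 and 13.74. In MYO10 and HERC3, 1 reverse probe was thus bright and the other dim, so their reverse-strand levels average unlike probes. With plain probe means 5 of these 6, all but MYO10, were smaller in size by more than their SD, down to −1.09 for SLC25A37 and −1.10 for HERC3.

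The brightest reverse-strand targets belonged to genes with bright forward targets. HMGB3, a chromatin protein, led the named ones with a reverse-strand level of 15.01 ± 0.12 and a forward level of 14.37 ± 0.11 (SD, n = 6). SIM1, a transcription factor of the hypothalamus, followed rpl30 at 14.74 ± 0.09, with 14.47 ± 0.15 forward. CCT2, a subunit of the cytosolic chaperonin, had 14.74 ± 0.06 in reverse and 13.89 ± 0.10 forward. ELAVL3, an RNA-binding protein of neurons on chromosome 3 at 44848787 to 44865342, had 14.70 ± 0.06 in reverse and 14.62 ± 0.12 forward. Its difference of 0.08 ± 0.09 was within the spread between arrays, and was −0.06 with plain probe means. For gng3, a G protein subunit of neurons on chromosome 21 at 23921893 to 23931267, the forward target was the brighter on all 6 arrays, by 0.48 on the log2 scale (reverse minus forward −0.48 ± 0.14).

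**Figure D2:**
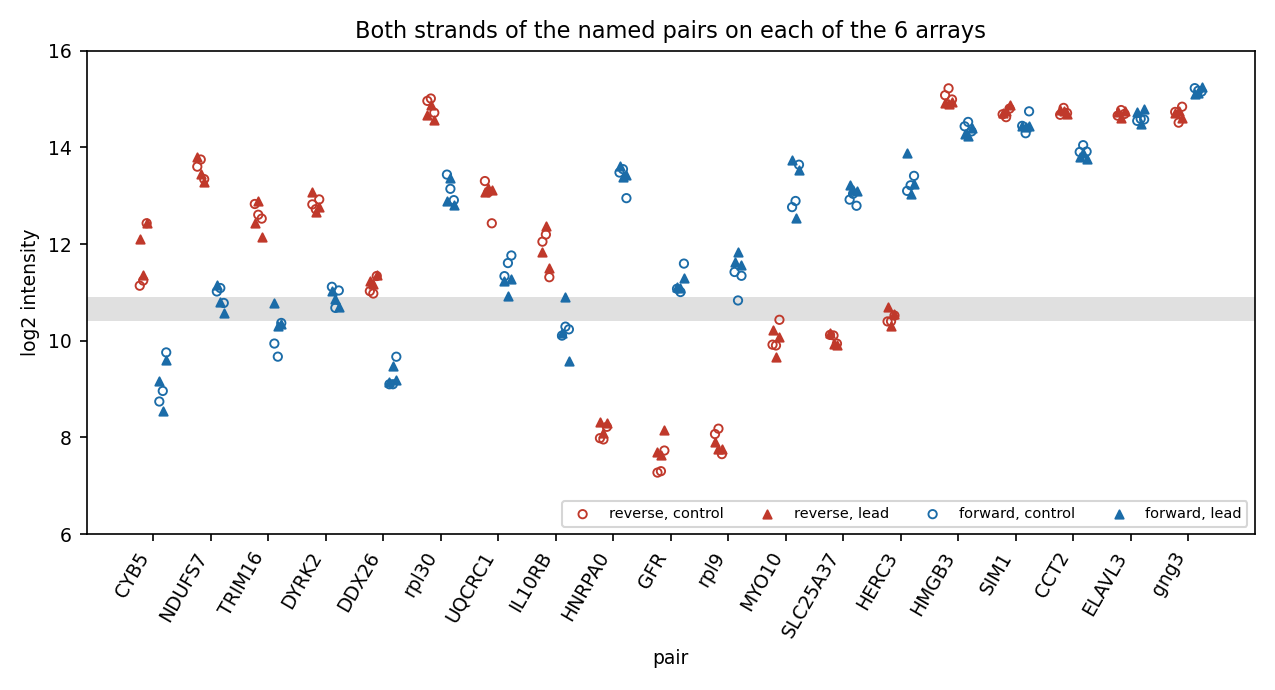
Log2 intensity of the reverse-strand target (red) and the forward partner (blue) of 19 named pairs on each array, with open circles for the 3 controls and filled triangles for the 3 lead-exposed brains; the grey band is the range of the random-sequence limit, 10.41 to 10.91. From CYB5 to IL10RB the red points lie above the blue on every array, from HNRPA0 to HERC3 they lie below, and among the brightest pairs on the right both lie between 13 and 16.

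Single probes showed that the gap between the directions was no wider than the gap between probes of 1 direction. A reverse and a forward probe of a pair differed by a median of 0.79 on the log2 scale over 7974 combinations. Forward probes of 1 target differed from each other by 1.08 over 3978 combinations, and the 2 reverse probes by 1.22 over 1332. Of the 27 reverse-only pairs 4 had both reverse probes brighter than every forward probe, and of the 20 forward-only pairs 2 had every forward probe brighter than both reverse probes. Among the pairs with gaps over 4-fold the probes separated in this way in 9 of 52 and in 6 of 31. For HNRPA0 the reverse probes averaged 8.49 and 7.80 and the forward probes 14.21, 13.41 and 10.78, so they separated. For CYB5 the reverse probes averaged 11.68 and 11.90, and 1 of the 3 forward probes was brighter, at 13.13, with the others at 8.77 and 6.90. SLC25A37 had a reverse probe at 12.97 and a forward probe at 7.08, each unlike the rest of its own target.

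The numbers in the probe names, which give a probe's place along its target, tied reverse probes to forward probes at mirrored places. The reverse probe with the lowest number and the forward probe with the highest number of the same pair differed by a median of 0.40 and correlated at 0.858 across pairs, and 76.1% lay within 2-fold. The reverse probe with the highest and the forward probe with the lowest number differed by 0.50, with a correlation of 0.822. Probes at the same end by number differed by 1.30 (both lowest) and 1.21 (both highest), with correlations of 0.550 and 0.596, close to 0.592 for the 2 reverse probes of a target. Forward probes of a target differed by 0.39 when their numbers lay within 30 bases and by 1.46 when they lay over 480 bases apart. The distance between mirrored probes was thus like that between forward probes that nearly overlap. The close combinations were those of opposite ends by number. Probe sequences were not used here.

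**Figure D3:**
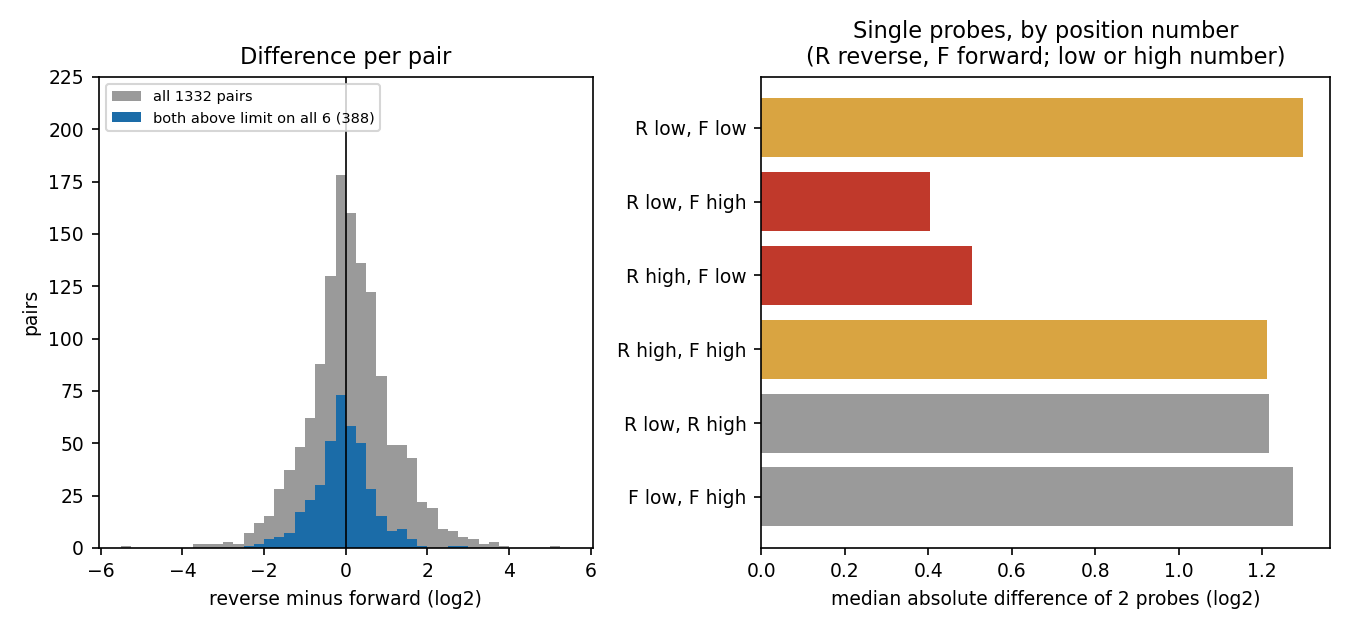
Left, the number of pairs by their mean reverse minus forward difference in bins of 0.25 log2 units, for all 1332 pairs (grey) and the 388 detected in both directions (blue). Right, the median absolute log2 difference between 2 probes of a pair, by direction (R, F) and by lowest or highest position number; the mirrored combinations (red) are at 0.40 and 0.50, and all others at 1.21 to 1.30.

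Over the 6 brains the directions tended to rise and fall together in most pairs. The median Pearson correlation of a reverse-strand target with its partner over the 6 arrays was 0.673 over all pairs, with quartiles of 0.254 and 0.870, and it was above 0 in 1113 pairs (83.6%). Among the 388 pairs detected in both directions the median was 0.826, and 367 (94.6%) were above 0. Among the 523 detected in neither it was 0.397. Over the 4 arrays that share the image name prefix the median over all pairs was 0.715. The points of each correlation share arrays, normalization and RNA, so these are descriptions. No value is given for targets of different genes with like levels, so the median of 0.673 and the 83.6% have no base rate. How far shifts shared by whole arrays enter them cannot be read from these values. For scale, different forward targets annotated to the same UniGene cluster correlated at a median of 0.555 over 2222 clusters, with 1 combination from each, and at 0.671 over the 1027 in which both were detected. Their correlations were above 0 in 80.5% and 85.7%.

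The correlations were also split by how much the forward target varied over the same 6 arrays. Among the 388 pairs detected in both directions, the 130 whose forward target varied least (SD 0.034 to 0.154) had a median correlation of 0.683. The 128 in the middle had 0.833 and the 130 that varied most (SD 0.248 to 1.21) had 0.909. The SD was taken over the arrays that enter each correlation, and with similar noise a larger SD by itself raises r. The rise is thus not read as closer agreement. In exact permutation tests over the 720 orders of 6 arrays, 192 of the 388 had an unadjusted p under 0.05 (49.5%) and 88 an adjusted p under 0.05. No share by this test is given for targets of different genes, which share the same arrays and normalization. The counts therefore have no base rate and are not read as a trait of the pairs. By kind of sequence the median in detected pairs was 0.853 for 242 pairs of single ESTs, 0.770 for 122 of contigs and 0.793 for 24 of mRNA records.

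**Figure D4:**
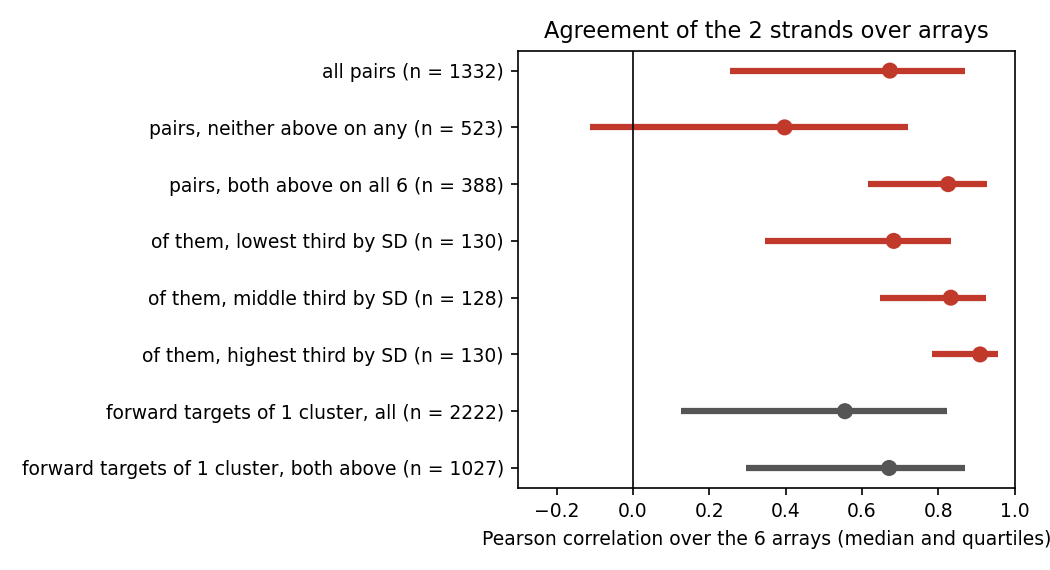
Pearson correlation over the 6 arrays, as the median (point) and the quartiles (bar), for pairs of reverse-strand target and forward partner (red) and for different forward targets of the same UniGene cluster (grey). The median is 0.826 for pairs detected in both directions, against 0.671 for detected forward targets of the same cluster. It is 0.909 for the pairs detected in both directions whose forward target varies most, a choice that by itself can raise the correlation.

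Among the pairs with a gene name the closest agreement was that of SCN3B, an auxiliary subunit of sodium channels of neurons. Its reverse-strand levels were 12.17, 12.60 and 11.10 in controls and 11.35, 11.21 and 11.31 in exposed brains, and its forward levels 12.53, 12.96 and 11.74, then 11.84, 11.71 and 11.89. Control arrays 1 and 2 were high in both directions. The correlation was r = 0.995 (exact permutation p = 0.00556, adjusted over the 388 pairs 0.0399) with rho = 0.886 (exact p = 0.0333, adjusted 0.103), and it was 0.771 once the 2 arrays farthest from the median were left out. TCF20, a transcriptional regulator, had levels of 12.30, 12.42, 12.75, 11.68, 12.26 and 12.88 in reverse and 12.25, 12.29, 12.80, 11.15, 11.99 and 12.97 forward, controls first. Lead array 1 was lowest and lead array 3 highest in both. Its r was 0.994 (exact permutation p = 0.00139, the smallest that 6 arrays allow, adjusted 0.0317), its rho 1.00 (exact p = 0.00278, adjusted 0.0513), and r without the 2 farthest arrays was 0.969. CYP1B1, a haem monooxygenase, and PNMA1, a neuronal antigen, had r = 0.992 and 0.989 (exact permutation p = 0.00556 and 0.00417), which were 0.885 and 0.963 without the 2 farthest arrays.

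A few detected pairs ran against each other. The lowest named correlation was that of LSM8, a spliceosomal RNA-binding protein, with r = −0.711 (exact permutation p = 0.108) and rho = −0.429 (exact p = 0.419). Its levels varied little, with 14.13 ± 0.11 in reverse and 14.56 ± 0.13 forward (SD, n = 6), and with the 2 farthest arrays left out r was −0.052. UQCRC1 had r = −0.683 (exact permutation p = 0.132), SRD5A2, a steroid reductase, −0.421 (exact p = 0.419) and COX7A2, a subunit of complex IV, −0.286 (exact p = 0.540). None of these 4 passed the test. In all, 4 of the 388 pairs had r below −0.5.

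Grouped by the role of the named gene, every group had some members in which the reverse-strand target was the brighter and some in which it was not. Of 28 pairs of transcription factors 16 had the reverse-strand target higher, with a median difference of 0.12 beside 0.064 over all pairs, and 8 reverse-strand and 8 forward targets were detected on all 6 arrays. The zinc finger pairs ZNF261 and ZNF197 were equal within their spread, at −0.05 ± 0.11 and −0.11 ± 0.13, and ZNF435 differed by 0.47 ± 0.09 (SD, n = 6). Among 10 pairs of transporters the forward partner was higher in all but 3, with a median of −0.51. The sodium pump subunit atp1b2a differed by −1.25 ± 0.15, while the phosphate transporter slc20a1b was near equal at 0.07 ± 0.10. Of 11 pairs of kinases and phosphatases 6 were higher in reverse, among them ACVR2, an activin receptor, by 0.26 ± 0.05, whereas dusp6, a phosphatase of MAP kinases, differed by −0.72 ± 0.11.

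Among 8 pairs of ribosome and translation genes 4 were higher in reverse. Their median correlation over arrays was 0.851, beside 0.673 over all pairs. It was the highest of the groups, and the lowest was 0.012, for RNA processing genes. RPL32 differed by −0.33 ± 0.07 and the elongation factor EEF2 by 0.26 ± 0.14. Of 8 pairs for the proteasome, ubiquitin and chaperones 6 were higher in reverse, with a median of 0.70. Of 9 pairs for mitochondrial energy metabolism 4 were higher in reverse, and tomm7, of the import pore, was equal within its spread at 0.04 ± 0.27. Of 8 pairs of chromatin genes 3 were higher in reverse, with a median of −0.70, and the acetyl-lysine reader brd3a differed by −0.72 ± 0.25. The reverse-strand target was higher in 1 of 5 pairs of ion channels and transmitter receptors, 3 of 6 of cell cycle genes, 3 of 6 of cytoskeleton genes, 4 of 11 of adhesion genes, 4 of 7 of RNA processing genes and 4 of 7 of vesicle and synapse genes. These groups are small and no test was made over them.

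Of the cytoskeleton, synapse and adhesion groups, the pairs given here are among the 3 with the brightest reverse-strand target of their group. The reverse-strand target was detected on all 6 arrays in 2 of 6 cytoskeleton pairs, 3 of 7 vesicle and synapse pairs and 3 of 11 adhesion pairs, beside 35.9% of all reverse-strand targets. The stathmin gene stmn1b, which regulates microtubules, read 14.65 ± 0.15 in reverse and 15.16 ± 0.07 forward. The synaptic scaffold genes dlg5a and DLGAP1 differed by 0.16 ± 0.10 and −0.45 ± 0.17. SNX27, a sorting nexin of endosomes, differed by −0.19 ± 0.13. Protocadherins, adhesion proteins of neurons, differed by 0.90 ± 0.09 for pcdh10a, −0.81 ± 0.09 for PCDHA3 and −0.19 ± 0.10 for PCDH18 (SD, n = 6). In the immune group, 4 of 6 pairs were higher in reverse. One of these was C4B, complement component C4, with reverse-strand levels of 12.71, 12.93 and 12.00 in controls and 12.03, 12.46 and 10.21 in exposed brains. Its forward levels were 10.90, 10.82 and 10.44, then 10.31, 10.75 and 8.57. Lead array 3 was the lowest in both directions, and the difference between directions was 1.76 ± 0.19 (SD, n = 6).

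By exposure, no reverse-strand target and no forward partner passed an adjusted p of 0.05 in limma. The smallest adjusted p was 0.568 in both directions. Among all targets 0 passed as well, and 2768 (7.19%) had an unadjusted p under 0.05, 4.19% higher and 3.0% lower in lead-exposed brains. Of the reverse-strand targets 129 had (9.35%), 79 higher and 50 lower in lead-exposed brains. Of the forward partners 94 had (7.06%), 67 higher and 27 lower. The random-sequence probes, tested as single probes, gave 23.2% by the same rule. With a fold of at least 1.5 in addition, 46 reverse-strand targets (3.33%) and 38 forward partners (2.85%) remained, beside 2.59% of all targets. In bulk brain RNA, fewer cells of a type and less RNA per cell cannot be told apart.

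The share of low p-values went with dimness. Of the 496 reverse-strand targets detected on all 6 arrays 23 (4.64%) had an unadjusted p under 0.05, beside 3.03% of all targets so detected, and 2 of these 23 had a fold of at least 1.5. The counts also turned on single arrays. The 129 reverse-strand targets became 226 without lead replicate 2 and 83 without lead replicate 3. They were 113 when the image name prefix was fitted as a block and 54 within the 4 arrays that carry it, and replicate 1 of each group alone allows no test. For the forward partners the 94 became 173 and 58 without the same 2 arrays, and 85 with the block.

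By rule, reverse-strand targets were named in order of unadjusted p among those with a fold of at least 1.5 and groups that do not overlap. Higher values without overlap were found in 8.77% of reverse-strand targets and 7.01% of all targets, and lower ones in 6.74% and 6.09%. Among the random-sequence probes, tested as single probes, 13.7% were higher and 16.9% lower without overlap. Single probes and targets summarised over probes are unlike measures, so no conclusion is drawn from the gap between these shares. The 6 named with higher values in lead-exposed brains were all below the limit on every array. For upb1, an enzyme of pyrimidine breakdown placed on chromosome 8 at 29289900 to 29321566, the reverse-strand levels were 8.64, 9.10 and 8.68 in controls and 9.86, 9.72 and 9.64 in exposed brains. The difference was 0.94 (SE 0.16, limma adjusted p = 0.568). The forward partner read 8.57, 8.52 and 8.60 in controls and 8.51, 8.60 and 8.34 in exposed brains, a difference of −0.08 (SE 0.13). Differences of the reverse-strand target and of the forward partner were 0.65 (SE 0.11) and −0.10 (SE 0.14) for ZHX3, a zinc finger and homeobox protein. They were 0.63 (SE 0.14) and 0.03 (SE 0.16) for ADAM23, a surface protein of neurons, and 0.70 (SE 0.16) and 0.13 (SE 0.23) for TOP1, a DNA topoisomerase. PDZRN1 had 0.70 (SE 0.20) and 0.15 (SE 0.11). The choice was made on the reverse-strand values, which by itself favours larger differences there than in the forward partners.

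By the same rule 3 reverse-strand targets were named with lower values in lead-exposed brains. For pax8, a transcription factor of thyroid and kidney, the reverse-strand levels were 10.00, 9.84 and 9.74 in controls and 9.56, 8.92 and 9.09 in exposed brains. The difference was −0.67 (SE 0.19, limma adjusted p = 0.606), and the forward partner, which was detected on all 6 arrays, differed by −0.11 (SE 0.16). ZAP128 and mark3a, a microtubule-affinity kinase gene, had differences of −0.61 (SE 0.30) and −0.77 (SE 0.48). Their unadjusted p in limma was 0.081 and 0.153 (adjusted 0.724 and 0.776), so neither had an unadjusted p under 0.05. Control array 3 read 10.03 and 9.23 where the other controls read 8.89 to 9.05 and 7.39, and without it the differences were −0.25 and −0.16.

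The difference between the directions was tested by exposure in the same way, over the 1332 pairs. None passed an adjusted p of 0.05 in limma, and 181 (13.6%) had an unadjusted p under 0.05, 79 with a higher (5.93%) and 102 with a lower (7.66%) difference in lead-exposed brains. Of the 388 pairs detected in both directions 24 had (6.19%). Within the 4 arrays with the prefix 111 pairs had, and with the prefix as a block 166. With array weights 10 pairs passed the adjusted threshold, and with dim targets left out 1 did.

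The pair with the smallest p among the named was CES2, a carboxylesterase. Its reverse-strand levels were 11.32, 11.20 and 10.87 in controls and 11.06, 10.83 and 10.69 in exposed brains. Its forward levels were 10.85, 10.72 and 10.45, then 11.39, 11.32 and 11.42. The reverse-strand target was the brighter in every control and the forward partner in every exposed brain. The difference between directions was 0.46 ± 0.03 in controls and −0.52 ± 0.20 in exposed brains (SD, n = 3), and lead minus control was −0.98 (SE 0.13, limma adjusted p = 0.0522). The adjusted p ranged from 0.0261 to 0.331 over the alternatives, and within the 4 arrays with the prefix the value was −1.07.

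DSPP, named for a matrix protein of dentin, had a lead minus control value of −1.07 (SE 0.16, limma adjusted p = 0.0522) for the difference between directions. Its reverse-strand levels were 8.66, 8.30 and 8.66 in controls and 8.07, 8.15 and 8.05 in exposed brains, and its forward levels 8.60, 8.58 and 9.05, then 9.39, 9.24 and 9.45, all below the limit. DSP, the desmosome protein desmoplakin, had a value of 0.80 (SE 0.12, adjusted p = 0.0522 in limma), PTGFRN, a regulator of a prostaglandin receptor, −0.81 (SE 0.13, adjusted p = 0.0600), upb1 1.02 (SE 0.17, adjusted p = 0.0632) and ZHX3 0.75 (SE 0.13, adjusted p = 0.0848). With array weights the adjusted p was 0.0350 for DSPP and DSP, 0.0446 for PTGFRN and 0.0353 for upb1, and over all alternatives it reached 0.331 or more for each of these pairs. CES2 was the only one of the 6 with its reverse-strand target detected on all 6 arrays.

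**Figure D5:**
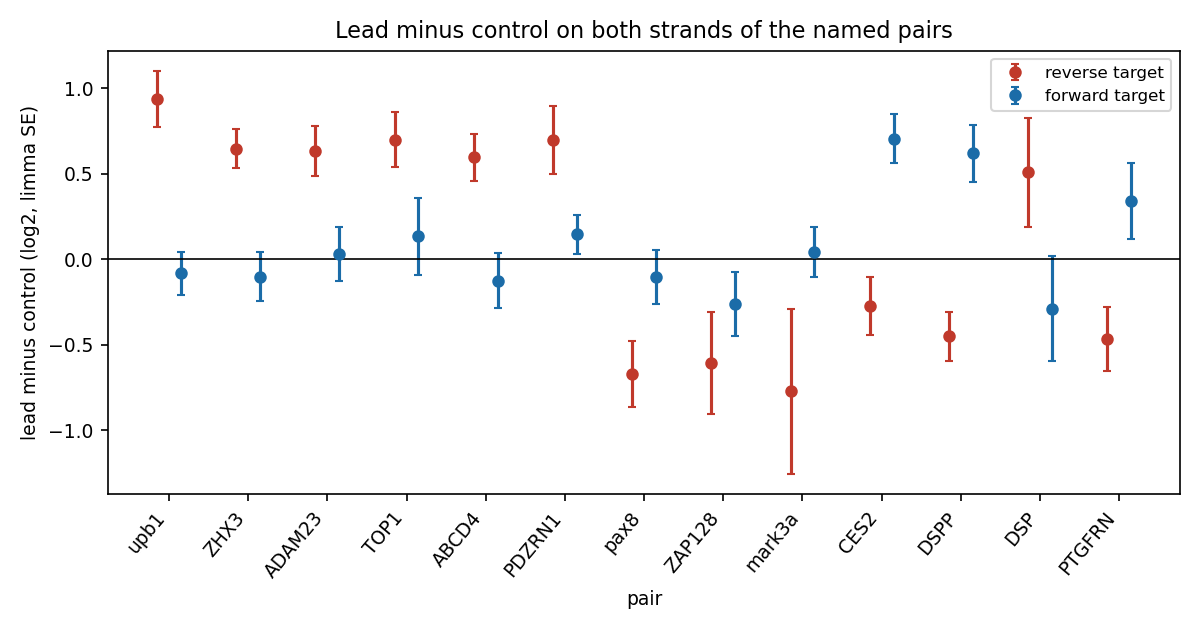
Lead minus control in log2 units, with limma's standard error, for the reverse-strand target (red) and the forward partner (blue) of 13 named pairs. In the first 6 pairs the reverse-strand values are 0.59 to 0.94 and the forward values −0.12 to 0.15. The pairs from upb1 to mark3a were named by the reverse-strand target, for a fold of at least 1.5 and groups that do not overlap. That choice by itself favours larger values in reverse than forward. The 2 directions lie on opposite sides of 0 for upb1, ZHX3, ABCD4, mark3a, CES2, DSPP, DSP and PTGFRN. The forward value of upb1, ZHX3, ABCD4, mark3a and DSP is within its standard error of 0, so its side is not established. CES2, DSPP, DSP, PTGFRN, upb1 and ZHX3 were named for a small p of the difference between directions, a choice that favours opposite signs.

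The authors' deposited table held 180 altered targets, where the array has 38489 targets. Among them were 4 of the 1380 reverse-strand targets and 1 of the 1332 forward partners. Given here are 3 of these reverse-strand targets and the forward partner, named as that table names them. Its log2 ratios were 0.59 for ABCD4, −0.70 for D2HGDH and −0.66 for UBALD1, all in reverse, and 0.69 for the forward target of FAM135B. In limma the forward partners of these 3 had differences of −0.12 (SE 0.16), −0.25 (SE 0.22) and −0.51 (SE 0.18) in the same order. The reverse-strand copy of FAM135B had 0.44 (SE 0.23), and 0.27 to 0.63 with each array left out in turn. For ABCD4, which takes part in cobalamin transport in lysosomes, the reverse-strand levels were 8.83, 8.64 and 8.89 in controls and 9.22, 9.46 and 9.46 in exposed brains, below the limit on every array. Its forward levels were 10.18, 9.92 and 10.29, then 10.15, 10.06 and 9.80, and lead minus control of the difference between directions was 0.72 (SE 0.16, limma adjusted p = 0.156). For UBALD1 the directions differed by exposure by −0.14 (SE 0.27), less than the standard error, and by −0.39 to 0.13 with each array left out in turn, so the sign was not stable.

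Some genes had several pairs, which did not give the same picture. CYP1B1 had 3. In its mRNA record the reverse-strand target was the brighter by 1.20 ± 0.06, in a contig on chromosome 13 at 42831604 to 42832142 the forward partner was (−0.96 ± 0.28), and a second contig was below the limit in both directions (0.20 ± 0.17, SD, n = 6). The gene top2a, a topoisomerase of dividing cells, had 2. The EST pair differed by −0.89 ± 0.25 and the contig pair by 0.87 ± 0.34. In lead-exposed brains the EST pair was higher by 0.73 (SE 0.29) in reverse and 1.07 (SE 0.36) forward, and the contig pair by 0.71 (SE 0.27) and 0.40 (SE 0.18), with limma adjusted p-values of 0.629 to 0.717. For the EST pair the levels in the 3 controls were 8.14, 8.24 and 8.78 in reverse and 8.97, 8.77 and 9.58 forward, and in the exposed brains 9.35, 8.54 and 9.46 in reverse and 10.32, 9.45 and 10.76 forward. The groups overlapped in both directions of that pair, and only 1 of the 12 values, forward on lead array 3, was above the limit.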

How the data were processed

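Values are RMA intensities on a linear scale, made by the authors with RMA, per the submitters' processing notes (background correction, quantile normalization, summary over probes) in a version that the sources used here do not name. The series value table holds single-probe intensities deposited by the authors, and random-sequence probes come from it. The list of altered targets gives a signed fold score, a log2 ratio and a p-value deposited by the authors, whose test is not given in the sources used here. The log2 of each intensity was taken, with 1 control row left out and no filter. Reverse-strand targets were matched to partners by name. The 2-sided moderated test of limma 3.58.1 (lmFit, eBayes; R 4.3.3) compared lead with control over all 38489 targets, and for the difference between directions over 1332 pairs, with Benjamini-Hochberg adjustment and no covariate. Both fits were run on simulated data with known changes. Those values were drawn without effects shared by an array, so that run does not cover such effects. Whether the fish of each group came from separate tanks is not in the labels, so the p-values cover the variation among these 6 fish, and having 3 arrays per group limits precision.

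Pairs with a usable gene name were taken in order within each rule: largest differences in either direction, brightest, smallest p by lead for the reverse-strand target (among those with a fold of at least 1.5 and groups that do not overlap) and for the pair (with no such filter), highest and lowest correlation, several pairs per gene, and up to 3 per gene group. A few pairs that the rules name are not reported here. Pairs without such a name were passed over, 22 among those brighter in reverse, 3 among those brighter forward, 8 among the brightest, 10 and 15 by lead, 5 for the difference, and 7 and 6 among the highest and lowest correlations. The members, gene groups and rules were chosen with earlier results of these data known. Same-numbered arrays of the groups deviated together with correlations of −0.15, 0.14 and 0.26, so the numbers were not taken to pair the fish.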

Additional observations from a re-analysis of the deposited data

How the results depend on the processing

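The limit decided how many targets counted as detected on all arrays: 19.9% of reverse-strand targets and 20.9% of forward partners with the 99th percentile of the random-sequence probes, 63.6% and 59.8% with the 75th, and 43.1% and 42.7% when 4 arrays of 6 sufficed. The sign of the small median difference between directions was not stable. It was 0.099 with plain probe means (56.5% of pairs higher in reverse), 0.038 with 1 pair per gene name, −0.081 (46.3%) with at least 1 member detected, −0.078 (45.1%) with both detected and −0.026 (49.0%) with the random-sequence median subtracted first. The ELAVL3 difference was −0.0597 with probe means. The median correlation over arrays was 0.600 by ranks, 0.715 on deviations from group means and also over the arrays with the prefix, 0.703 with probe means, 0.826 in detected pairs and 0.670 to 0.704 with each array left out in turn.

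By exposure, array weights gave 254 reverse-strand targets and 189 forward partners at unadjusted p under 0.05, 93 reverse-strand targets with a fold of at least 1.5, and 10 pairs past the adjusted threshold. With dim targets left out, which tests fewer targets, these were 43, 39, 12 and 1, with 69 pairs at unadjusted p under 0.05. Within the arrays with the prefix, an alternative chosen after seeing the data, they were 54 and 60, with 111 pairs. Leaving out 1 array at a time gave 83 to 226 reverse-strand targets, 33 to 119 with the fold (73 without control replicate 3, 119 without lead replicate 2), 58 to 173 forward partners and 123 to 182 pairs. The numbers did not pair the fish, and a replicate block gave 143 reverse-strand targets, 53 with the fold, 102 forward partners and 173 pairs, with 0 past the adjusted threshold. The cause of these shifts was not tested. Targets with 3 probes alone could not be run for reverse-strand targets, which all have 2.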

Other observations

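The 48 reverse-strand targets without a forward partner on the array comprised 31 single ESTs, 16 contigs and 1 mRNA record. Their mean log2 levels ranged from 6.77 to 13.82 with a median of 10.11, and 19 of them were above the random-sequence limit on all 6 arrays.

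The annotation of the array carries clone names, and the ending of some was read here as the direction of the EST read. In 211 pairs whose clone name was so read as from the 3′ end, the reverse-strand target was higher in 117 (55.5%). That is near the 53.7% of all pairs and the 54.6% of pairs of single ESTs. Their median difference was 0.081, and 68 of these 211 pairs were detected in both directions. Only 3 pairs carried the mark of a 5′ read.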
